A study of Mus musculus with 2 samples.

Results

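Footprints with identical ends are the short protected intervals that both libraries of neonatal mouse cerebellum placed at exactly the same bases. They were selected on the deposited footprint positions: an interval is a member if it is under 25 bp wide and its chromosome, start and end are the same in both libraries, on chromosomes 1 to 19. There were 2634 of them, which is 2.60% of the 101336 short footprints of replicate 1 and 1.11% of the 237575 of replicate 2. The full footprint files hold 112281 and 261301 intervals. DNase I accessibility was measured by sequencing in cerebellum tissue of male B6CASTF1/J mice, a hybrid strain, aged 4 days. The 2 libraries are numbered as biological replicates 1 and 2 of 1 group, and the label of each names 3 males. Replicate 1 is labelled with a NovaSeq and a HiSeq instrument, and for replicate 2 no instrument was found among the labels used here. The files hold no read totals, so the depth of the libraries is unknown.

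DNase I cuts DNA where it is not wrapped in a nucleosome, and a bound transcription factor can shield a few bases from cutting inside such an open region. A footprint is a stretch with fewer cuts than its surroundings. DNase I also has a preference for some base sequences over others, which shapes where it cuts in naked DNA. In the neonatal cerebellum granule cell precursors multiply in the outer layer under Sonic hedgehog, while Purkinje cells, glia and interneurons mature beneath them.

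A further 51122 short footprints of replicate 1 (50.4%) and 42511 of replicate 2 (17.9%) overlapped a footprint of the other library by at least 1 bp without sharing both ends. These are called merely overlapping here. The remaining 47580 and 192430 overlapped none. Of the short footprints overlapped at all, 4.90% in replicate 1 and 5.83% in replicate 2 had identical ends. Among the merely overlapping ones, 13875 (27.1%) in replicate 1 and 12537 (29.5%) in replicate 2 shared 1 end. The members are 1 set of intervals with 1 sequence each, so only their peak values differ between libraries. The merely overlapping footprints are given for each library. Since the choice used the positions and there is 1 group of 2 libraries, all values below are descriptions without a test.

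The sequences below show what these intervals look like. They are windows on the plus strand of mm10, read from the RefSeq GRCm38.p6 sequence, 35 bases long, or at most 29 bases where the footprint lies in a UTR. Coordinates are those of the window. All sequences, here and below, are those of the reference genome, and variants carried by the hybrid mice were not read. In the first set the capitals are the footprint itself, for an example of each of the 3 footprint sequences that most members carried, 6 members each on either strand.
Zdhhc14 chr17:5492476-5492510: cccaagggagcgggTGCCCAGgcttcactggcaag
Tmem14a chr1:21161921-21161955: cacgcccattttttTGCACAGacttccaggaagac
Cipc chr12:86947419-86947447: tcatggagtcgTGGGGACcggctcgcgca
All 3 begin with TG on the strand shown. Each was carried by 6 to 21 merely overlapping footprints in either library.

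The next set holds the members of the single peak with most of them, at the start of Fam110b. The capitals are again the footprints, each 7 bp wide.
Fam110b chr4:5644036-5644070: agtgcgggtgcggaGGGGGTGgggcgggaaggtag
Fam110b chr4:5644070-5644104: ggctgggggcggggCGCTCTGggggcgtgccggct
Fam110b chr4:5644154-5644182: cctcgctctccTGCGGAGcctgcctgagc
Fam110b chr4:5644388-5644416: gcaggggccggAGTGCGGccaaggtaaac
The 4 footprints differ in sequence, and the 3 bases before them differ as well.

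The last set shows factor motifs, in capitals, on either strand, and does not mark the footprints. The motifs are TGACAG of the MEIS homeodomain proteins, the E-boxes CAGCTG and CAGGTG bound by bHLH factors, CAGCAGG of the ZIC zinc finger proteins, CCANNAGNNGGC of the insulator protein CTCF, GCGCNTGCGC of NRF1 and GGGCGGG of the SP and KLF factors. For each, the members shown are those in the strongest peaks, for CTCF among members of 13 bp or more. The first window also holds the ZIC motif, overlapping that of MEIS. The motif need not lie in the footprint: those at Pdpk1, Mien1, Myh10 and Lmtk2 are wholly outside it. Of all members holding the motif, it was wholly inside the footprint in 5.88% for MEIS, 18.7% for CAGCTG and 40.3% for CAGGTG. The shares were 36.2% for ZIC, 42.0% for CTCF, 45.8% for NRF1 and 36.8% for SP/KLF.
Vps33a with MEIS chr5:123573077-123573111: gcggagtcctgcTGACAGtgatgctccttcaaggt
Pdpk1 with MEIS chr17:24141674-24141708: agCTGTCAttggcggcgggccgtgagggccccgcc
Ppm1a with E-box chr12:72761139-72761173: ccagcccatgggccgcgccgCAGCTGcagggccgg
Mien1 with E-box chr11:98439081-98439115: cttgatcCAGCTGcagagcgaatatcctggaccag
Hif1an with ZIC chr19:44582786-44582820: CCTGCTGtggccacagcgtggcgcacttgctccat
Myh10 with E-box chr11:68691910-68691938: ttcCAGGTGggtggagggagcgggacttg
Lmtk2 with E-box chr5:144100321-144100355: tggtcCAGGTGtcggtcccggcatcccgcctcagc
Stk11 with CTCF chr10:80114690-80114724: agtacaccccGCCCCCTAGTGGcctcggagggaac
Slc25a38 with CTCF chr9:120110282-120110316: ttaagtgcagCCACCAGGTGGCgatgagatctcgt
Ep300 with CTCF chr15:81586181-81586209: ccctttttcgcccccGCCTCCTTGTGGcg
Ndufaf4 with NRF1 chr4:24897958-24897992: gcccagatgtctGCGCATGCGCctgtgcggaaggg
Ppp2r5e with SP/KLF chr12:75596361-75596395: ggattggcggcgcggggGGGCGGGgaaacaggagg
Most of these lie at a promoter: 9 of the 12 are within 500 bp of a protein-coding start of the named gene, and the members near Ep300, Stk11 and Hif1an are 792, 1086 and 19941 bp away. They were picked from the strongest peaks. Of all members holding the motif, those within 500 bp of a start were 5.10% for CTCF, 5.80% for ZIC and 17.6% for MEIS. The shares were 21.3% for CAGCTG, 19.5% for CAGGTG, 87.5% for NRF1 and 78.5% for SP/KLF. The CTCF, NRF1 and SP/KLF windows were chosen for display after the values were seen.

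Identical ends were the leading single arrangement among overlapping footprints of the same width. There were 5326 overlapping pairs in which both footprints were short and equally wide, and 2634 of them (49.5%) were at a shift of 0. At each other shift of 1 to 6 bp in either direction there were 138 to 301 pairs, with a median of 215. The same held in each width class. For 7 bp footprints there were 1283 pairs at a shift of 0 and 79 to 157 at the others, for 8 to 12 bp 897 against 29 to 109, and for 13 to 24 bp 454 against 13 to 70. The pairs at a shift of 0 were thus 8.75 times the most frequent other shift over all short widths. Allowing both ends to differ by 1 bp gave 6133 intervals.

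**Figure D1:**
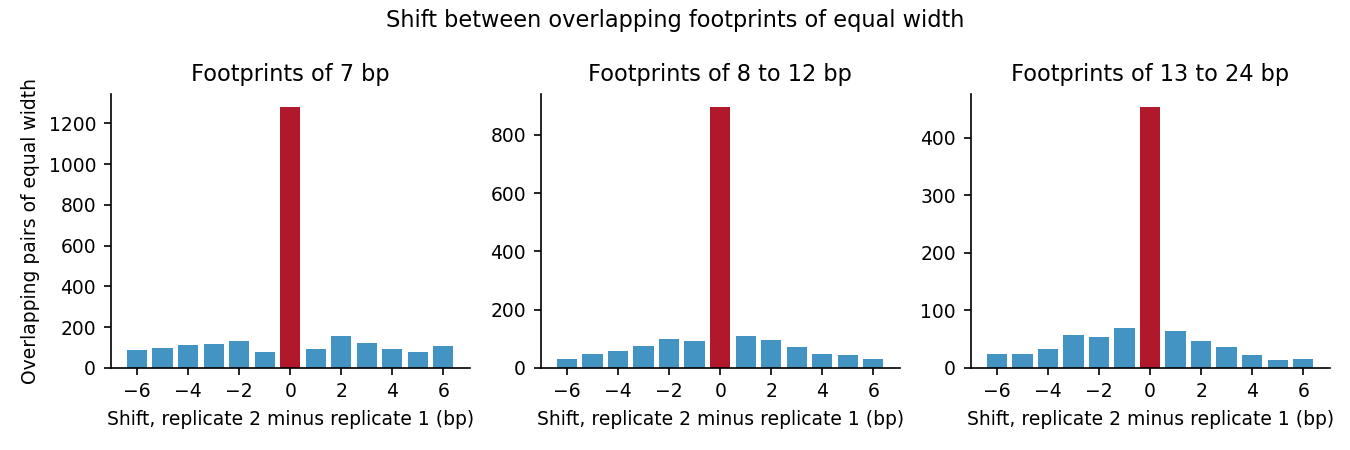
Number of overlapping footprint pairs of equal width (vertical axis, from 0) by the shift of replicate 2 relative to replicate 1 in bp (horizontal axis), in 3 width classes with their own vertical scales. The red bar at a shift of 0 holds the identical ends, 1283, 897 and 454 pairs, and the blue bars the other shifts.

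Close to every second member had the smallest width found in the files. There were 1283 members of 7 bp (48.7%), against 24.3% of the merely overlapping footprints in replicate 1 and 14.04% in replicate 2. Another 897 members were 8 to 12 bp wide and 454 were 13 to 24 bp wide. The median width was 8 bp for members, and 10 and 13 bp for merely overlapping footprints in replicates 1 and 2. Small widths were not particular to members. Footprints that overlapped none also had a median of 8 bp in each library. Of these, 22526 of 47580 in replicate 1 and 68910 of 192430 in replicate 2 were 7 bp wide. Of the overlapped 7 bp footprints 9.35% in replicate 1 and 17.7% in replicate 2 had identical ends, while at 13 bp the shares were 1.86% and 2.26%. The width limit does not fall at a break in the counts: 28 intervals with identical ends were 24 bp wide, just inside it, and 31 were 25 bp wide, just outside.

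**Figure D2:**
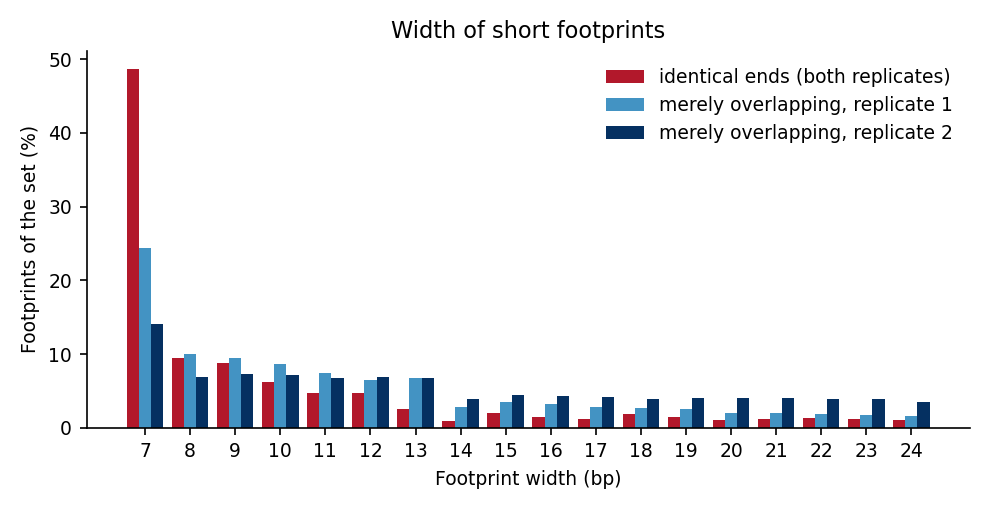
Share of each set of short footprints (%, vertical axis from 0) by footprint width in bp (horizontal axis), for identical ends (red) and merely overlapping footprints of replicates 1 (light blue) and 2 (dark blue). The red bar at 7 bp reaches 48.7%, above 24.3% and 14.04%.

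The bases around the ends followed a pattern that was stronger in members. Positions are counted outward from the footprint as -1, -2 and so on, and inward from 1. The start is read on the plus strand and the end on the minus strand, so that both run from outside to inside. At position -3 of the start, 41.0% of members had adenine, against 27.2% and 34.4% of merely overlapping footprints in replicates 1 and 2. At position -2 of the end the shares were 40.9% of members, against 26.8% and 34.2%. The pattern at the end thus lay 1 base closer to the footprint than that at the start, in all sets. How the authors counted the last base of a footprint is not stated, so the printed ends, widths and first and last bases hold as the files give them and could be off by 1 base at 1 end. Both adenines together were present in 469 members (17.8%), against 7.49% and 12.2% of merely overlapping footprints, and at least 1 of them in 64.2% of members, against 46.6% and 56.4%.

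Inside the footprint, adenine at position 6 of the start was found in 32.0% of members, against 21.7% and 20.4% of merely overlapping footprints in replicates 1 and 2. At position 7 of the end the shares were 32.8% of members, against 20.8% and 20.1%. In the 7 bp footprints the first base was thymine in 40.2% of members, against 24.6% and 33.9%. In a 7 bp interval, positions 6 and 7 of one end are also positions 2 and 1 of the other, so these values depend on the share of 7 bp footprints in each set. Within 7 bp footprints, adenine at position 6 of the start was in 40.8% of members, against 26.3% and 35.5%, and in the 13 to 24 bp class in 18.1%, against 18.5% and 16.4%. Adenine at position -3 of the start was found in 42.2% of 7 bp members, against 26.4% and 33.0%, in 40.9% of 8 to 12 bp members, against 26.8% and 34.9%, and in 38.1% of 13 to 24 bp members, against 28.3% and 34.4%. Footprints that overlapped none had adenine at position -3 of the start in 28.2% and 35.4% of cases, close to the merely overlapping footprints of the same library. The 2 ends were read separately after values pooled over both had been seen.

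**Figure D3:**
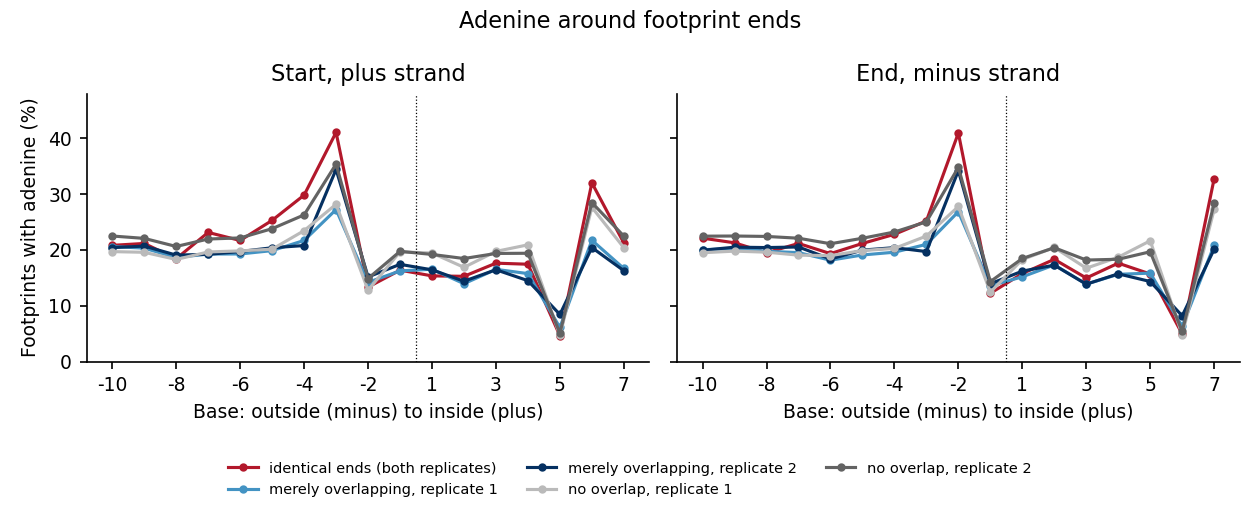
Share of footprints with adenine (%, vertical axis) by position relative to the start (left, plus strand) and the end (right, minus strand), with outside positions negative and a dotted line at the footprint edge. The red line of identical ends peaks at 41.0% at position -3 of the start and 40.9% at position -2 of the end, above the lines of merely overlapping (blue) and not overlapping (grey) footprints.

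Members were less rich in G and C than merely overlapping footprints. Their mean GC content was 63.1%, against 68.3% in replicate 1 and 67.6% in replicate 2, a difference of -4.86 ± 0.472 percentage points (SD over the 2 libraries). The direction was the same near starts, where members had 71.9% and merely overlapping footprints 74.2% and 73.7%, and at distal sites, with 58.4% against 61.8% and 61.5%. In the widest class, 13 to 24 bp, the difference was -2.26 percentage points. CpG dinucleotides occurred in 37.3% of members, against 54.0% and 57.8% of merely overlapping footprints, which are also wider. Bases marked as repeats by soft masking touched 10.1% of members, against 9.36% and 9.76%. Footprints that overlapped none had lower values than members for GC, 62.8% and 60.9% in replicates 1 and 2. They held CpG in 35.7% and 30.7% of cases, so low GC and few CpG were not particular to members.

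Among 7 bp members, 790 sequences were carried by a single member (a sequence and its reverse complement counted as 1), and no sequence by more than 6. None of the 454 members of 13 to 24 bp shared its sequence with another.

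Of 42 factor motifs searched on either strand in the 35 bp window around each footprint, 15 were held by a larger share of members than of merely overlapping footprints in both libraries and 23 by a smaller share in both. Only 9 of them were held by at least 30 members, and these are given first. Of the 9, SP/KLF, the CCAAT box and the AP-2 motif were less frequent in members in both libraries. SP/KLF, the GC box, was in 144 members, 5.47% (95% Wilson interval 4.66 to 6.40, counting error only), against 10.8% and 9.83% of merely overlapping footprints in replicates 1 and 2. The CCAAT box, written CCAATNNG and bound by NF-Y, was in 35 members, 1.33%, against 2.28% and 2.13%. The AP-2 motif GCCNNNGGC was in 69 members, 2.62%, against 3.66% and 3.54%. SP/KLF was also less frequent within 500 bp of starts alone, in 13.3% of members against 18.5% and 17.3%.

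The shares of the MEIS, E-box and ZIC motifs were within the members' counting error of those of merely overlapping footprints. The MEIS motif was in 51 members, 1.94% (1.48 to 2.54), against 1.57% and 1.54%, a ratio of 1.25. This was the largest ratio of the 9, and both values of the merely overlapping footprints lie inside the interval of the members. The E-box CAGCTG was in 75 members, 2.85%, against 2.54% and 2.59%. The E-box CAGGTG was in 77 members, 2.92%, against 2.85% and 3.09%, and the E-box CAGATG, read by proneural bHLH factors such as those of the granule lineage, in 60 members, 2.28%, against 2.35% and 2.43%. The ZIC motif was in 69 members, 2.62%, against 2.61% and 2.68%. At distal sites alone, MEIS was in 2.51% of members, against 1.90% and 1.94%, while the others were lower in members: CAGGTG was in 3.46%, against 4.53% and 4.85%, CAGATG in 3.16%, against 4.09% and 4.03%, CAGCTG in 3.16%, against 3.68% and 3.60%, and ZIC in 3.76%, against 4.42% and 4.28%. Windows inside peaks but outside footprints held the MEIS motif in 2.33% and 2.77% of cases and the E-box CAGCTG in 2.63% and 2.91%, above the members' share for MEIS.

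The CTCF motif was in 157 members, 5.96% (5.12 to 6.93), against 5.87% and 6.34% of merely overlapping footprints, and in 0.28% and 0.33% of windows in peaks outside footprints. Its share depended on width. Among footprints of 13 to 24 bp, 89 of 454 members held it, 19.6% (16.2 to 23.5), against 11.3% and 7.89%. At 23 to 24 bp it was in 22 of 61 members, 36.1%, against 25.3% and 12.4%, and at 7 bp in 32 of 1283, 2.49%, against 2.25% and 4.04%. At distal sites of any width it was in 8.53% of members, against 11.5% and 11.9%. Motifs can overlap: 19 of the 69 members with the ZIC motif also held that of CTCF, as did 14 of the 77 with CAGGTG. The width classes were looked at after the overall values.

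Some motifs that fewer than 30 members held are named here after their values were seen, in both directions. NRF1, an activator of nuclear genes for mitochondria, was in 24 members, 0.91% (0.61 to 1.35), against 2.38% and 2.11%. The ETS motif CCGGAAG was in 20, 0.76%, against 1.73% and 1.78%. The CRE, TGACGTCA, bound by CREB proteins, was in 8, 0.30%, against 0.72% and 0.63%. All 3 of these were also less frequent near starts alone, where NRF1 was in 2.46% of members against 4.26% and 3.93%. In the 13 to 24 bp class all 3 were lower in members but within counting error, with NRF1 in 2.42% (1.36 to 4.29), against 3.65% and 3.18%. Over all short footprints of replicates 1 and 2, NRF1 was in 1.35% and 0.68%, ETS in 1.31% and 0.88% and CRE in 0.43% and 0.24%. For NRF1 and CRE the value of replicate 2 was below the members' share. Higher in members was the TATA box TATAAA, a core promoter element, in 23 members, 0.87% (0.58 to 1.31), against 0.48% and 0.45%. Near starts alone it was lower in members, 0.35% against 0.56% and 0.47%. At distal sites it was higher, 1.13% against 0.43% and 0.46%. Among 7 bp footprints the shares were 1.33% against 0.46% and 0.34%, and at 8 to 12 bp 0.45% against 0.41% and 0.51%. No member held TATAAA wholly inside the footprint. RBPJ, the DNA-binding partner of Notch, with the motif GTGGGAA, was in 25 members, 0.95% (0.64 to 1.40), against 0.65% and 0.63%, which is within counting error in replicate 1. The homeodomain motif TAATTA was in 13 members, 0.49% (0.29 to 0.84), against 0.11% and 0.14%. The STAT motif TTCCNGGAA was in 7 members, 0.27% (0.13 to 0.55), against 0.084% and 0.099%. The ROR motif TAGGTCA was also in 7, 0.27% (0.13 to 0.55), against 0.086% and 0.094%. Windows inside peaks but outside footprints held TATAAA in 0.51% and 0.99% of cases in replicates 1 and 2. They held the RBPJ motif in 0.73% and 0.79% and TAATTA in 0.25% and 0.59%. For TATAAA and TAATTA the value of these windows in replicate 2 was above the members' share.

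Of all words of 8 bases, 390 were in at least 0.5% of the members' windows, and 191 of these had a mean ratio above 1. Words were listed on the members' share alone. A listed word held by under 0.5% of merely overlapping footprints thus has a ratio above 1 by that choice. The count of 191 and the largest ratios therefore do not show that members are richer in these words. The largest ratios were those of AAAAAAAT, in 15 members (0.569% against 0.129% and 0.153%), and TAAAAAAA, in 16 (0.607% against 0.158% and 0.172%). The next were AAAGGGAA in 14, AGCTTCCC in 15, AGGAAGGC in 14 and CTGGGCAA in 14 members, with ratios of 2.75 to 3.20. Each rests on 14 to 16 members.

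Members lay less often at promoters. Within 500 bp of a protein-coding start were 852 members, 32.3% (30.6 to 34.2), against 49.9% of merely overlapping footprints in replicate 1 and 47.5% in replicate 2, a difference of -16.4 ± 1.69 percentage points (SD, n = 2 libraries). At distal sites, over 1000 bp from any such start, were 1676 members, 63.6%, against 46.2% and 48.5%, a difference of 16.3 ± 1.60. The remaining 106 members (4.02%) were between these distances. Footprints that overlapped none were near starts in 36.9% and 24.7% of cases. When merely overlapping footprints were weighted to the members' peak values, the differences shrank to -5.38 near starts and 5.63 at distal sites. The median distance to a start was 6401 bp for members, and 509.5 and 761 bp for merely overlapping footprints. By annotation, 922 of the 2634 members were in introns, against 29.5% and 30.3% of merely overlapping footprints, and 359 members (13.6%) in UTRs, against 18.7% and 18.7%, while 1100 (41.8%) were intergenic, against 42.5% and 41.3%.

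**Figure D4:**
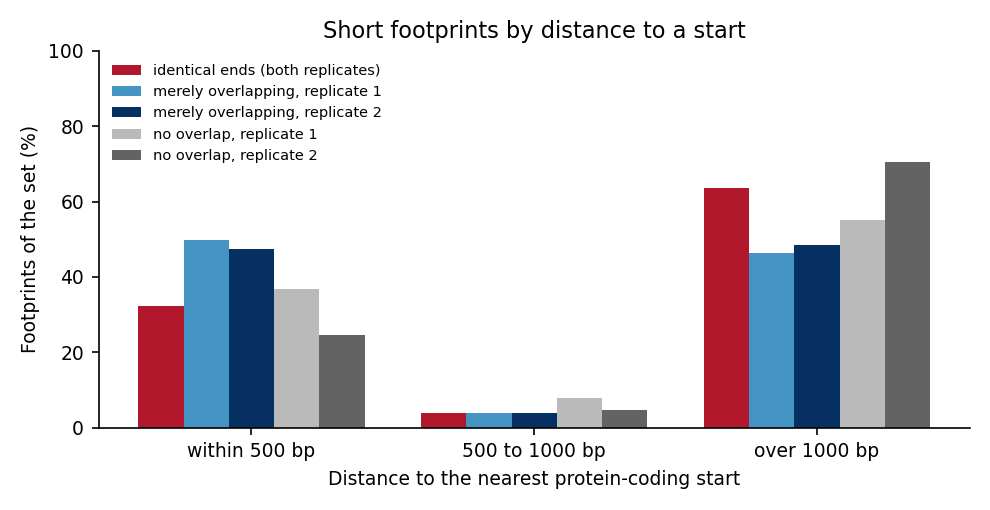
Share of each set (%, vertical axis from 0) by distance to the nearest protein-coding start (horizontal axis), for identical ends (red), merely overlapping (blue) and not overlapping (grey) footprints. Identical ends reach 32.3% within 500 bp, below 49.9% and 47.5% of merely overlapping footprints, and 63.6% over 1000 bp.

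Members lay in weaker peaks than merely overlapping footprints, but in stronger ones than footprints that overlapped none. The peak value is the signal the authors gave each peak of the less strict list. How it was scaled to depth is not stated, so sets are compared within a library and no level between libraries. In replicate 1 the median was 1.23 around members, with quartiles of 0.813 and 2.09, against a median of 1.83 around merely overlapping footprints, with quartiles of 1.06 and 2.99. In replicate 2 it was 1.64 (0.911 to 3.17) around members, against 2.80 (1.48 to 5.48). The ratio of medians was 0.630 ± 0.0641 (SD, n = 2). Near starts the medians were 1.86 and 3.27 for members, against 2.66 and 5.16, and at distal sites 1.08 and 1.36, against 1.20 and 1.78. Around footprints that overlapped none, the medians over all short widths were 0.806 in replicate 1 and 0.865 in replicate 2.

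Nearly all members were in a peak: 2448 (92.9%) in replicate 1 and 2424 (92.0%) in replicate 2, against 94.9% and 94.3% of merely overlapping footprints. In the class of 13 to 24 bp members were in a peak more often, by 0.301 percentage points in replicate 1 and 2.62 in replicate 2, a mean of 1.46 ± 1.64 (SD, n = 2), so this difference is smaller than its spread between libraries. Fewer were in the stricter list, 61.9% and 85.7%, against 77.6% and 91.4%. In replicate 1, 67.4% of members touched an interval with a false discovery rate under 0.001, against 82.3%, and in replicate 2 93.6%, against 97.1%. The median distance of members from the middle of their peak was 38 and 39.5 bp, against 33.5 and 34 bp, but in the 13 to 24 bp class it was 17 and 18.5 bp, against 23.5 and 30 bp.

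The share of overlapped footprints whose ends were identical was highest in weak peaks. When the short footprints of a library were cut into 10 classes by peak value, 14.7% of the overlapped ones had identical ends in the weakest class of replicate 1 and 2.07% in the strongest. In replicate 2 the shares were 16.4% and 2.53%. As a share of all short footprints, overlapped or not, the highest value was 3.34% in the sixth class of replicate 1 and 1.93% in the eighth of replicate 2. In the weakest class 6.71% of short footprints in replicate 1 and 1.44% in replicate 2 were overlapped at all, and in the strongest 85.4% and 45.9%.

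**Figure D5:**
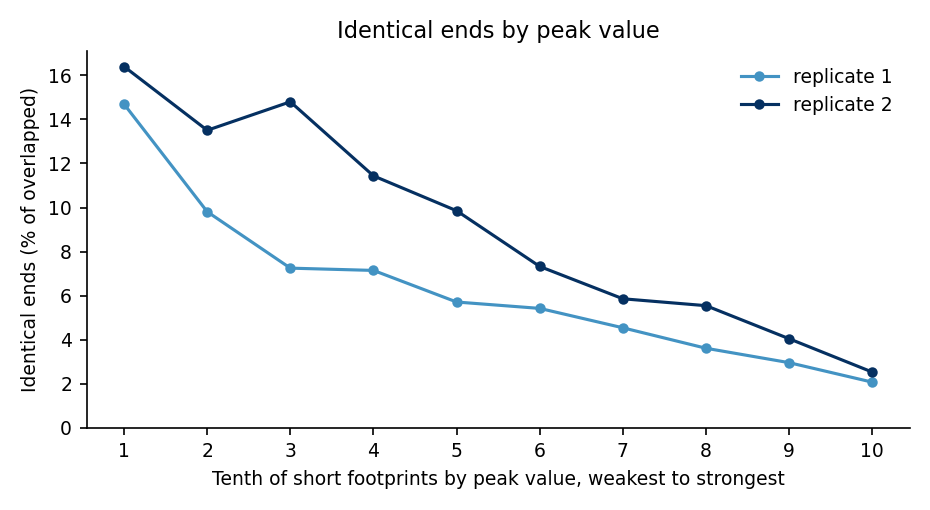
Share of overlapped short footprints that have identical ends (%, vertical axis from 0) by class of peak value, 1 weakest and 10 strongest (horizontal axis), for replicates 1 (light blue) and 2 (dark blue). The share is 14.7% and 16.4% in class 1 and 2.07% and 2.53% in class 10.

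Members were spread thinly over genes. Within 500 bp of a start, 879 of 20698 protein-coding genes (4.25%) had a member, against 50.2% and 47.5% with a merely overlapping footprint. The sets differ in size, with 852 members near starts against 25511 and 20196 merely overlapping footprints. These shares of genes are therefore not compared at equal numbers of intervals. A member within 500 bp of the starts of several genes was counted for each, so 852 members gave 879 genes. Distal members, below, were each assigned to a single gene, so the shares near starts and distal are counted by different rules. Of the 879, 833 had 1 member, 41 had 2, 4 had 3 and 1 had 4. Fam110b had the 4 shown above, all in 1 peak whose value was 0.968 in replicate 1 and 1.21 in replicate 2, with 2 and 3 merely overlapping footprints at its starts. The signal transducer Stat5a, the adhesion receptor Adgrv1, the glycolytic regulator Pfkfb3 and Slx4ip had 3 each. In the single peak of Adgrv1, valued 0.793 and 0.685, the members were 7, 11 and 7 bp wide. The members of Pfkfb3 lay in peaks of 0.768 to 2.84 in replicate 1 and 0.698 to 5.49 in replicate 2. The next genes, the metalloprotease Adamts15, Arhgap21, the channel protein Best2, the RNA helicase Ddx52 and Eid2b, had 2 members each and no merely overlapping footprint in either library, which is how the rule for ties chose them among the 41. Among the peaks with most members, 101 had 2, and those nearest Pou3f3, Nbeal1 and Klf7 come first among them by having no merely overlapping footprint in replicate 1 and then by their position on chromosome 1.

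Distal members were assigned to the gene of the nearest start, which need not be the gene they act on. This gave 1467 genes (7.09%) a distal member, against 37.7% and 35.7% with a merely overlapping footprint. Here too the sets differ in size, with 1676 distal members against 23639 and 20618 merely overlapping footprints. Of the 1467 genes, 1285 had 1 member, 156 had 2, 25 had 3 and 1 had 4. Slc15a1, the intestinal peptide transporter, had 4 members, in 2 peaks 49540 to 74023 bp away. With 3 each were 1700012B07Rik, the kinase Adpgk, the repressor Bhlhe41, Emc10 of the endoplasmic reticulum, the signalling ligand Wnt5a, Zfp217, the lamin Lmnb1, 3110018I06Rik and the protocadherin Pcdhgc5. The members of Wnt5a were 1642 to 2967 bp from a start, within the gene body, in peaks of 0.690 to 1.12 in replicate 1 and 0.532 to 1.16 in replicate 2. Those of Pcdhgc5 lay in peaks of 1.05 to 3.61 and 2.36 to 9.10.

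The lists of cell type genes are short, and each count below is small. Over all protein-coding genes, 4.25% had a member near a start and 7.09% a distal one. Of 24 granule lineage genes, only Gli1, the transcriptional effector of Hedgehog signalling, had one near a start: a 7 bp interval 34 bp away in a peak of 1.15 in replicate 1 and 0.891 in replicate 2. Merely overlapping footprints were near the starts of 11 of the 24 in each library. Distal members were assigned to Gli2, Ptch1, Nfib and Sox11, 4 of the 24, and the one near Gli2, 15 bp wide and 34081 bp from the start, lay in a peak of 2.37 and 2.85. Distal merely overlapping footprints were assigned to 20 of the 24 in each library, also above the share over all genes, 37.7% and 35.7%. Among Purkinje genes, the calcium binders Calb1 and Pvalb had a member near a start. Their peak values in replicates 1 and 2 were 0.871 and 1.11 for Calb1 and 1.29 and 1.28 for Pvalb.

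None of 12 glia genes had a member near a start and 6 had a distal one: Sox9, Gfap, Gdf10, Olig1, Pdgfra and Hes1. Distal merely overlapping footprints were assigned to 9 of the 12 in each library, also above the share over all genes, 37.7% and 35.7%. None of 13 cell cycle genes had a member of either kind, which at these shares over all genes is no result about them. Of 13 housekeeping genes, Rplp0, which encodes a ribosomal protein, and Tbp, which encodes the TATA-binding protein, had a member near a start, and all 13 had a merely overlapping one. The member at Rplp0 lay in the strongest peak of any member in replicate 1, 7.62, and in one of 14.6 in replicate 2. Lists of 9 GABAergic interneuron, 7 microglia and 5 skeletal muscle genes had no member, the 9 endothelial and mural genes had distal members at 3, the 9 forebrain genes at Bcl11b alone and the 6 liver genes at Apoa1 alone.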

How the data were processed

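For each library the authors deposited footprints, 2 peak lists and short intervals with a false discovery rate (FDR), on mm10 per the labels. No aligner or caller was named in the labels or file headers used here. Peak values are the deposited signal of each peak, and the authors' scaling to depth is not stated. The FDR files hold a q-value per interval, deposited only where below 0.05, and the footprint files hold 0.01 in their deposited p-value column on every line, so footprints are used as positions. Overlaps of at least 1 bp, distances to starts of protein-coding transcripts in GENCODE M21, sequence in RefSeq GRCm38.p6 and motifs in 35 bp windows were computed with Python 3.11.15, numpy 2.4.6 and pandas 2.3.3, and drawn with matplotlib 3.10.9. The scripts were tested on simulated intervals. Where peaks of 1 list overlapped, the stronger was used. Values are given per library or as mean ± SD over 2 libraries, and regions are not replicates. An exact two-sided permutation test of 2 values against 2 cannot go below p = 0.333, so none was made. Wilson 95% intervals cover counting error only.

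The genes named are the 10 with most members within 500 bp of a start and the 10 with most distal members, ties by fewest merely overlapping footprints and then by name. The peaks named are the 5 of replicate 1 with most members, ties by fewest merely overlapping footprints and then by position. Motifs are ranked by the ratio of shares among those held by at least 30 members, and words among those in at least 0.5% of the members' windows. The members and all 11 gene lists were chosen with earlier results of these data known. Alternatives on width, overlap, weighting, repeated sequences, distance and peak list are in the closing section. Part of the Purkinje gene list is not reported here.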

Additional observations from a re-analysis of the deposited data

Results flagged for a closer look

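Chromosome X lies outside the intervals described above. It held 73 short footprints with identical ends, 2.90% of the 2515 short footprints of replicate 1 and 1.37% of the 5348 of replicate 2. They were flagged because they are a signal in data that the comparisons did not use, and there is no control sample to set them against. The shares per autosome ran from 1.90% to 3.22% in replicate 1 and from 0.773% to 1.37% in replicate 2.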

How the results depend on the processing

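No paired analysis was possible because both libraries belong to 1 group. Allowing both ends to differ by 1 bp, with each footprint used once, gave 6133 intervals instead of 2634. With merely overlapping footprints of any width, the differences were -4.23 percentage points for GC, -13.6 near starts, 13.3 at distal sites and -2.82 for the share in a peak. Weighting them to the members' widths gave -4.30 for GC and -1.26 for the share in a peak. Weighting to peak values gave -3.65 for GC, -5.38 near starts and 5.63 at distal sites, and could give no value for the peak results, which the weights fix. Distal sites over 5000 bp gave 13.7. The stricter peak list gave a ratio of medians of 0.694 and a share-in-peak difference of -10.7.

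Width classes were added after seeing the data. The 7 bp footprints alone gave -14.5 near starts and a ratio of 0.708. Those of 13 to 24 bp gave -2.26 for GC, -20.2 near starts, 19.6 at distal sites and a reversed share-in-peak difference, 1.46 (0.301 and 2.62 in the 2 libraries). Without 1 replicate the GC difference was -5.19 and -4.52, that near starts -17.6 and -15.2 and that at distal sites 17.4 and 15.1. The cause of these shifts was not tested. Other alternatives moved these values by less than 1 SD, and the motif count of 15 stayed between 12 and 19. With 2 libraries, leaving out 1 always moves a mean by less than 1 SD, so that alternative cannot show a dependence. The member count of 2634 has no SD. It was 2477 for widths under 20 bp and 2328 for distinct sequences. The unknown read depth limits which footprints were called in either library.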

Other observations

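The peak value of replicate 2 relative to replicate 1 was lower around members than around merely overlapping footprints. In the 2328 members inside peaks of both libraries, the median log2 difference, replicate 2 minus replicate 1, was 0.36. Around the merely overlapping footprints of replicate 1 the median was 0.89, and around those of replicate 2 it was 0.78. The scaling of the libraries is not stated, so the size of each difference cannot be read. The gap between the sets could be read only if a single factor held at all peak values. Around members the lower quartile was 0.813 in replicate 1 and 0.911 in replicate 2, and the upper quartile 2.09 and 3.17. Members lay in weaker peaks than merely overlapping footprints, so the gap cannot be told apart from peak strength.

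Of 60053 peaks of replicate 1, 2342 (3.90%) held a member: 2239 held 1, 101 held 2, 1 held 3 and 1 held 4.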
